A study of Mus musculus with 12 samples.

Results

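The semaphorins, plexins and neuropilins of mouse dorsal root ganglia were described from poly(A) RNA of YAC Q84 and wild-type (WT) mice at 24 weeks of age. Members were the protein-coding genes whose symbols begin with Sema3 to Sema7, Plxna, Plxnb, Plxnc or Plxnd, or are Nrp1 or Nrp2. This rule took 31 of the 35583 genes with a matched transcript: 20 semaphorins, 9 plexins and 2 neuropilins. YAC Q84 is a transgenic line in which human ATXN3, with its CAG repeat expanded as in spinocerebellar ataxia type 3, sits on a yeast artificial chromosome. Dorsal root ganglia hold the cell bodies of the neurons that bring touch, pain and body position from trunk and limbs. The 12 libraries were labelled as 1 Q84 male, 5 Q84 females, 3 WT males and 3 WT females. The zygosity of the transgene, the strain and the number of animals behind a library are not given in the sources used here. Nothing in the labels says that libraries came from separate animals, so the p-values measure the spread between libraries.

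Semaphorins are secreted or membrane-bound proteins that steer growing axons, mostly by repulsion, and that also act in blood vessels and immune cells. Their main receptors are the plexins, whose cytoplasmic part acts on small GTPases and so on the cytoskeleton. Most secreted class 3 semaphorins bind a neuropilin, which pairs with a class A plexin to carry the signal, while the other semaphorins mostly bind plexins directly. In sensory neurons Sema3a, acting through Nrp1, is the classic repellent of nociceptor axons, which sense pain, and Sema7a, a membrane-anchored semaphorin, binds Plxnc1 and integrins.

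Total estimated counts ran from 66490481 to 86891563 per library. All 5 neuron markers, all 4 satellite glia markers and all 5 Schwann cell markers of the lists used were above 1 TPM, and of 5 spinal cord markers Aqp4 alone was. The genotype labels were checked with an Atxn3 transcript of 1000 bases, to which reads of the transgene may be assigned. Q84 male 1 and Q84 female 1 to 4 ranged from 62.7 to 79.4 TPM, and WT male 1 to 3, WT female 1 and WT female 3 had at most 0.285 TPM. Against their labels, Q84 female 5 had only 0.0612 TPM, and WT female 2 reached 34.0 TPM. Results are therefore given for all 12 libraries as labelled and for the 10 libraries left without these 2, and no library was moved to another group. The share of counts from mitochondrial genes was 8.84 to 11.8% in libraries labelled Q84 and 6.80 to 9.47% in those labelled WT.

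The levels of the members per transcript length, as TPM summed per gene, covered more than 2 orders of magnitude. Among the ligands Sema3b, a secreted semaphorin, was the most abundant by its WT mean, at 21.3 ± 8.30 TPM in Q84 and 23.1 ± 5.13 TPM in WT (SD, n = 6 each). Sema6d, Sema4f and Sema3c followed with WT means of 15.5, 15.1 and 12.5 TPM. Each of these genes overlapped its neighbour in that order over the WT libraries, so the order of neighbours does not exceed the spread, while every WT library had less Sema3c (10.3 to 16.0 TPM) than any had Sema3b (18.5 to 32.9 TPM). At the other end stood Sema6b, at 0.159 ± 0.0478 TPM in Q84 and 0.117 ± 0.0460 TPM in WT, Sema5b, and Sema3a, at 0.486 ± 0.182 TPM in Q84 and 0.181 ± 0.109 TPM in WT (SD, n = 6 each). Sema6b, Sema5b and Sema3a overlapped one another over the WT libraries. Of the 20 semaphorins, 4 had a WT mean above 10 TPM and 7 a mean below 1 TPM.

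Among the receptors Plxnc1, the receptor of Sema7a, was the most abundant, at 27.3 ± 18.2 TPM in Q84 and 33.0 ± 3.61 TPM in WT (SD, n = 6 each). Nrp1 came next, at 11.1 ± 3.46 TPM in Q84 and 16.3 ± 4.73 TPM in WT. Over the WT libraries these 2 genes did not overlap, since the lowest Plxnc1 value, 26.5 TPM, lay above every Nrp1 value. Plxna1, a class A plexin that pairs with neuropilins, had the lowest mean, at 0.616 ± 0.182 TPM in Q84 and 0.566 ± 0.130 TPM in WT. Over the WT libraries it overlapped Plxnb1, at 0.352 to 0.760 TPM against 0.543 to 0.911 TPM. Plxnc1 alone made up 49.0 to 54.0% of the summed plexin TPM in Q84 male 1 and Q84 female 1 to 4, 65.6% in Q84 female 5, and 58.4 to 66.6% in the 6 libraries labelled WT.

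**Figure D1:**
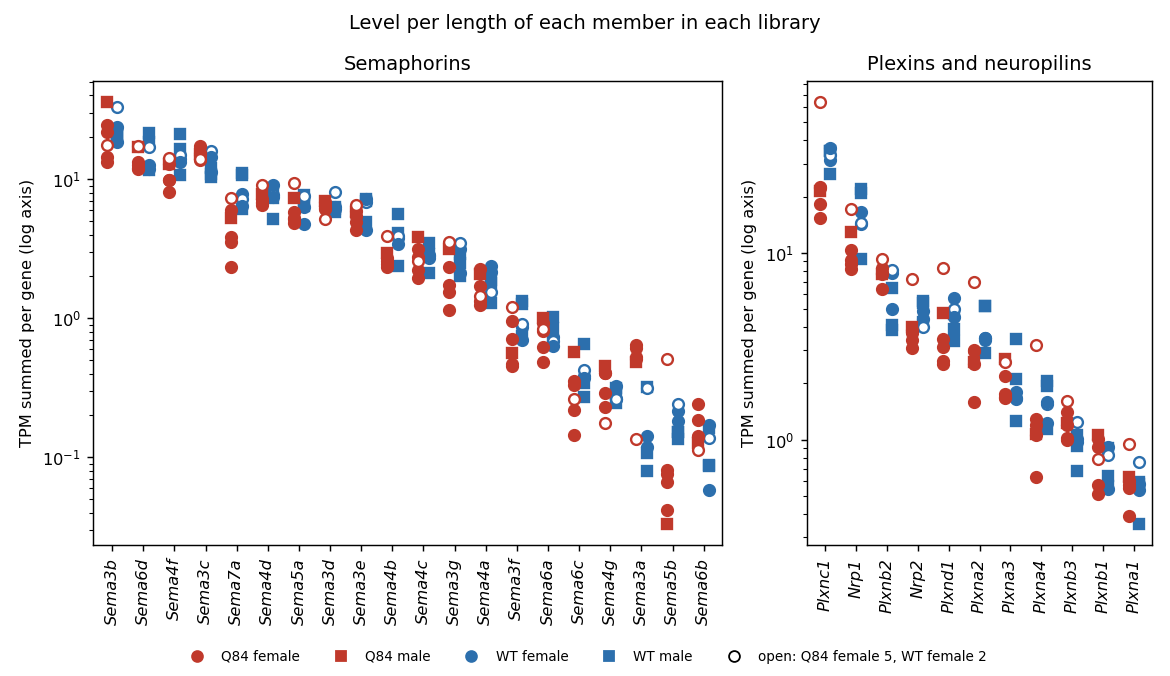
TPM summed per gene on a log axis for 20 semaphorins (left) and 11 receptors (right), ordered by their mean in WT. Each point is 1 library, with Q84 left of WT within a gene and open points for Q84 female 5 and WT female 2. Plxnc1 reaches 64.1 TPM in Q84 female 5, and Sema3a lies at 0.645 TPM or less in every library.

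These sums rest on transcripts of different kinds. In 11 of 31 members a single transcript held more than 90% of the gene's TPM, among them Plxnc1 (97.3%), Nrp1 (95.2%) and Sema7a (99.6%). In 4 members the leading transcript was not protein-coding: a processed transcript of 834 bases for Plxnb2, and retained introns for Plxnd1 (542 bases), Plxnb3 (5030 bases) and Sema4a (2108 bases). The TPM of these 4 genes is therefore not a level of coding mRNA alone.

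Comparing Q84 with WT in the 10 libraries asks what differs where label and Atxn3 transcript match. Sema3a was higher in Q84 and Plxnc1 was lower, and the other 29 members did not pass (edgeR's quasi-likelihood test, Benjamini-Hochberg adjusted p below 0.05 over 18721 genes). That is 1 of 31 members higher, where 1.52% of all genes tested were called higher, and 1 of 31 lower, where 4.93% were called lower. In both directions together 2 of 31 members were called, which is 6.45% of the members and 6.45% of all genes tested. At this threshold the family as a whole did not stand out in calls. At an unadjusted p below 0.05 there were 11 members, 35.5% of the members against 20.2% of all genes tested. Of these, 3 were higher (9.68% of the members, 8.01% of all genes) and 8 lower (25.8% of the members, 12.2% of all genes). Whether these shares differ was not tested. The median log2 fold change was -0.09 over the members and 0.01 over all genes tested. With all 12 libraries as labelled 0 of 31 members passed (edgeR, 0.0053% of all genes called), DESeq2 called 1, Sema3a, and limma-voom 0. At an unadjusted p below 0.05 there were 4 members, 12.9% of the members against 14.3% of all genes. Of these, 3 were higher (9.68% against 5.72%) and 1 lower (3.23% against 8.56%).

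**Figure D2:**
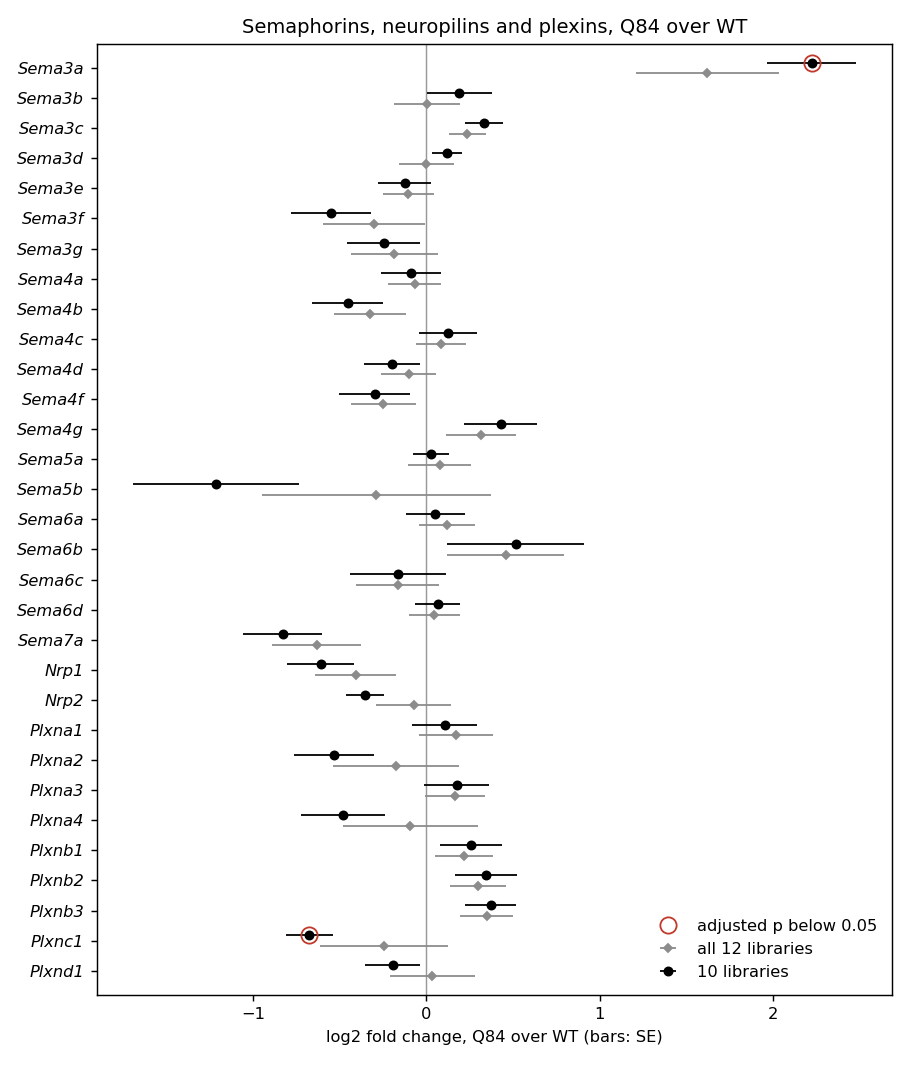
Log2 fold change of Q84 over WT, with its standard error, for the 31 members in order of class. Black points are the 10-library fit and grey diamonds the 12-library fit. The red circles mark Sema3a (2.22) and Plxnc1 (-0.68), which passed in the 10 libraries.

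The bases just upstream of the RefSeq transcription starts of Sema3a, Plxnc1 and Sema7a are shown because these are the members whose levels the results turn on. RefSeq lists such windows, on build GRCm38.p6, for 26 of the 31 members. Each line gives the 250 bases before the start, 5′ to 3′ on the gene's strand, with GGGCGG or its reverse complement CCGCCC in capitals. This is the core of the GC box, which Sp-family factors bind.
Sema3a: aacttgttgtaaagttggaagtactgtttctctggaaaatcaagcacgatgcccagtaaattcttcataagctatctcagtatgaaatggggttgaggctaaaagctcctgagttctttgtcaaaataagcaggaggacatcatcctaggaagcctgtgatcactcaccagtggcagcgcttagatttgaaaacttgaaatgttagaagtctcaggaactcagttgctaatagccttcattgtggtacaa
Plxnc1: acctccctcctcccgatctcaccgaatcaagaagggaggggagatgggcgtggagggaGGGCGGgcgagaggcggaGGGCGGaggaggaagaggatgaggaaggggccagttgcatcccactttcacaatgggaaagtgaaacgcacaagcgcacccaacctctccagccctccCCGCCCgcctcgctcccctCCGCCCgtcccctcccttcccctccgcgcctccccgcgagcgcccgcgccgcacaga
Sema7a: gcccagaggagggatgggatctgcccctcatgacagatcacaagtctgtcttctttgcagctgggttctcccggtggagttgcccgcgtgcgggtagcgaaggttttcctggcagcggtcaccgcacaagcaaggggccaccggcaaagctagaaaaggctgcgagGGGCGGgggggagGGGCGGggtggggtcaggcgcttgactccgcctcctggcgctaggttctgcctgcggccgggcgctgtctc
The windows lie at chr5:13396534-13396783 on the plus strand for Sema3a, chr10:94944846-94945095 on the minus strand for Plxnc1 and chr9:57939862-57940111 on the plus strand for Sema7a. The window of Plxnc1 held 4 matches on either strand, that of Sema7a 2 and that of Sema3a 0, with no overlap between matches. Of all 32851 windows of the same length, 32.7% held at least 1 match, and so did 27 of the 37 windows of members. GC content was 40.8% for Sema3a, the lowest among the members' windows, 68.8% for Plxnc1 and 66.4% for Sema7a, against a median of 52.4% over all windows. None of the 3 windows held TATAAA on either strand, which 12.4% of all windows did. Whether these starts are the ones used in the ganglion was not tested.

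Sema3a (ENSMUSG00000028883) is a secreted ligand that collapses growth cones of sensory axons. Its level was 1.73, 2.48, 2.46, 2.30 and 1.96 CPM in Q84 male 1 and Q84 female 1 to 4. It was 0.680, 0.295, 0.378, 0.462 and 0.413 CPM in WT male 1 to 3, WT female 1 and WT female 3. The lowest of these Q84 libraries thus lay above the highest of these WT libraries. The means were 2.19 ± 0.326 CPM in Q84 and 0.446 ± 0.144 CPM in WT (SD, n = 5 each). The fitted log2 fold change was 2.22 with an SE of 0.26, or 4.67-fold (edgeR, adjusted p = 0.000323). These levels are low, with 130 to 189 estimated reads per library in the 5 Q84 libraries and 25 to 52 in the 5 WT libraries.

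The library labelled Q84 female 5 held 0.511 CPM of Sema3a, within the WT range, and the library labelled WT female 2 held 1.20 CPM, between the ranges of the 5 Q84 and the 5 WT libraries. The Atxn3 transcript in those 2 libraries was likewise at the WT level and in between. In the 12 libraries as labelled Sema3a had a log2 fold change of 1.62 (SE 0.41, edgeR, adjusted p = 0.129), which did not pass. The call in the 10 libraries was kept with each library left out in turn, with log2 fold changes of 2.13 to 2.39. Under the strict filter of 10 CPM the gene was too low to be tested. By transcript, Sema3a-204 of 5502 bases averaged 0.398 ± 0.124 TPM in Q84 and 0.0754 ± 0.0472 TPM in WT, and Sema3a-201 of 5930 bases 0.134 ± 0.0630 TPM in Q84 and 0.0335 ± 0.0288 TPM in WT (SD, n = 5 each). Both are coding, and their split rests on few reads.

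**Figure D3:**
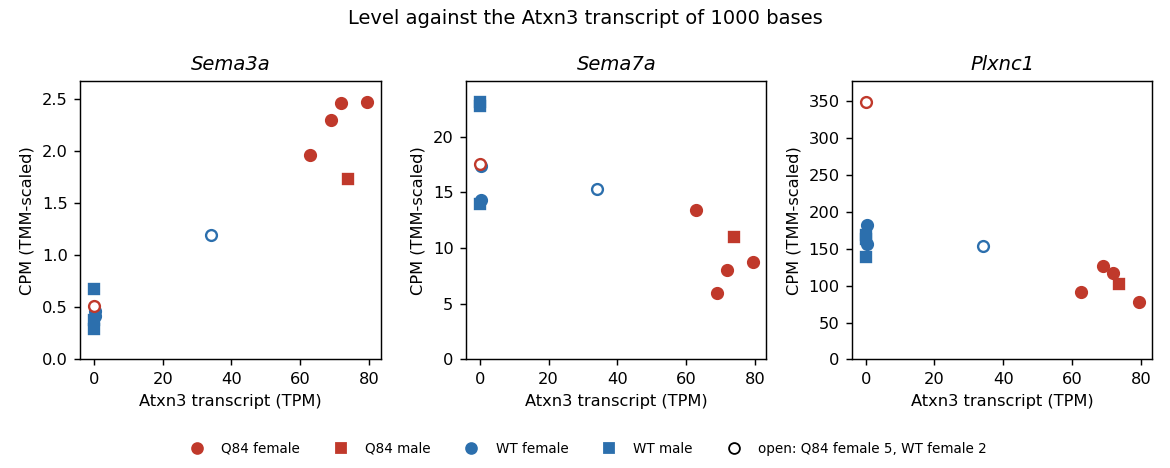
CPM of Sema3a, Sema7a and Plxnc1 (vertical axes) against TPM of the Atxn3 transcript of 1000 bases (horizontal axis), 1 point per library. The open blue point at 34.0 TPM is WT female 2, with 1.20 CPM of Sema3a, and the open red point near 0 TPM is Q84 female 5.

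The other 6 class 3 semaphorins did not pass in the 10 libraries. Sema3c, a guidance factor also known from heart outflow development, had the next smallest p among them, at 56.9 ± 6.15 CPM in Q84 and 42.9 ± 6.58 CPM in WT (SD, n = 5 each). Its log2 fold change was 0.33 (SE 0.11, edgeR, adjusted p = 0.103), and the ranges overlapped, since Q84 ran from 49.0 to 65.1 CPM and WT from 36.4 to 54.0 CPM. Sema3f, the main Nrp2 ligand, was at 1.22 ± 0.314 CPM in Q84 and 1.86 ± 0.357 CPM in WT (SD, n = 5 each), with a log2 fold change of -0.55 (adjusted p = 0.204). Sema3b, Sema3d, Sema3e and Sema3g had log2 fold changes from -0.25 to 0.19.

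Sema7a (ENSMUSG00000038264), the membrane-anchored ligand of Plxnc1, was at 10.98, 8.71, 8.05, 5.98 and 13.4 CPM in Q84 male 1 and Q84 female 1 to 4. It was at 13.9, 22.8, 23.1, 17.3 and 14.3 CPM in WT male 1 to 3, WT female 1 and WT female 3. The ranges did not overlap, but the highest Q84 and the lowest WT library were close. The log2 fold change was -0.83 (SE 0.23, edgeR, adjusted p = 0.0584), and Sema7a did not pass. Alternatives in which it passed included DESeq2 (adjusted p = 0.00477), the fits without WT male 1 (0.0259) and without Q84 female 4 (0.0103), and a block for replicate number. The libraries labelled Q84 female 5 and WT female 2 held 17.5 and 15.2 CPM, both within the WT range.

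Sema5b, a transmembrane semaphorin with thrombospondin repeats, had the most negative log2 fold change of the family in the 10 libraries, -1.21 (SE 0.48, edgeR, adjusted p = 0.176), and did not pass. In the 12 libraries as labelled it was -0.29 (adjusted p = 0.891), and Sema7a, at -0.63, was the most negative. Sema5b was counted with only 3 to 19 reads in the 5 Q84 libraries and 21 to 37 in the 5 WT libraries, while Q84 female 5 had 76 reads. With length-scaled TPM the edgeR adjusted p of Sema5b in the 10 libraries was 0.0163. The remaining class 4, 5 and 6 semaphorins, 11 genes in all, had log2 fold changes from -0.45 (Sema4b) to 0.52 (Sema6b), and none passed. Among them Sema4b passed in 1 fit, without WT male 1 (-0.54, adjusted p = 0.0216).

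Plxnc1 (ENSMUSG00000074785), the class C plexin, was at 103, 78.2, 117, 127 and 91.9 CPM in Q84 male 1 and Q84 female 1 to 4. It was at 139, 168, 163, 156 and 183 CPM in WT male 1 to 3, WT female 1 and WT female 3. Every one of these Q84 libraries lay below every one of these WT libraries. The means were 103 ± 19.4 CPM in Q84 and 162 ± 16.2 CPM in WT (SD, n = 5 each), and the log2 fold change was -0.68 with an SE of 0.14 (edgeR, adjusted p = 0.0120). The call was lost without WT female 3 (-0.60, adjusted p = 0.0699), without Q84 male 1 (-0.71, adjusted p = 0.0547) and in the female libraries alone (-0.70, adjusted p = 0.0919).

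The 2 libraries that went against their labels differed in Plxnc1. The library labelled WT female 2 held 154 CPM, within the WT range. The library labelled Q84 female 5 held 350 CPM, above every other library, of which the highest had 183 CPM. With it the log2 fold change over the 12 libraries as labelled was -0.24 (SE 0.37, edgeR, adjusted p = 0.824), and without it alone it was -0.65 (adjusted p = 0.00770). The change was seen in the transcript Plxnc1-201 of 7302 bases, which carried 97.3% of the gene's TPM in the 5 Q84 libraries and 97.1% in the 5 WT libraries.

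Nrp1, the co-receptor of Sema3a and of VEGF-A, ran from 21.8 to 29.7 CPM in the 5 Q84 libraries, with 45.1 CPM in Q84 female 5. It ran from 23.7 to 50.8 CPM in the 5 WT libraries, with 33.1 CPM in WT female 2. WT male 1 was the lowest WT library, and the ranges overlapped through it. The log2 fold change was -0.61 (SE 0.19, edgeR, adjusted p = 0.0960) and Nrp1 did not pass, whereas without WT male 1 it did (-0.71, adjusted p = 0.000164), as it did with DESeq2 (adjusted p = 0.0249) and in the female libraries alone (adjusted p = 0.00541).

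Nrp2, the co-receptor of Sema3f and VEGF-C, was at 17.1, 14.3, 15.8, 19.3 and 17.7 CPM in Q84 male 1 and Q84 female 1 to 4. It was at 20.2, 24.0, 23.2, 19.99 and 22.2 CPM in WT male 1 to 3, WT female 1 and WT female 3. The ranges did not overlap, but the log2 fold change was only -0.35 (SE 0.11, edgeR, adjusted p = 0.0803), and Nrp2 did not pass. It passed in 4 of 21 alternatives, with DESeq2 (adjusted p = 0.0241), without the sex term (0.0278), without WT male 1 (0.0356) and without Q84 female 3. In the 12 libraries as labelled the log2 fold change of Nrp2 was -0.07 (adjusted p = 0.920). Q84 female 5 had the highest value of all libraries, 35.1 CPM, and WT female 2 had 17.03 CPM, within the range of the 5 Q84 libraries.

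**Figure D4:**
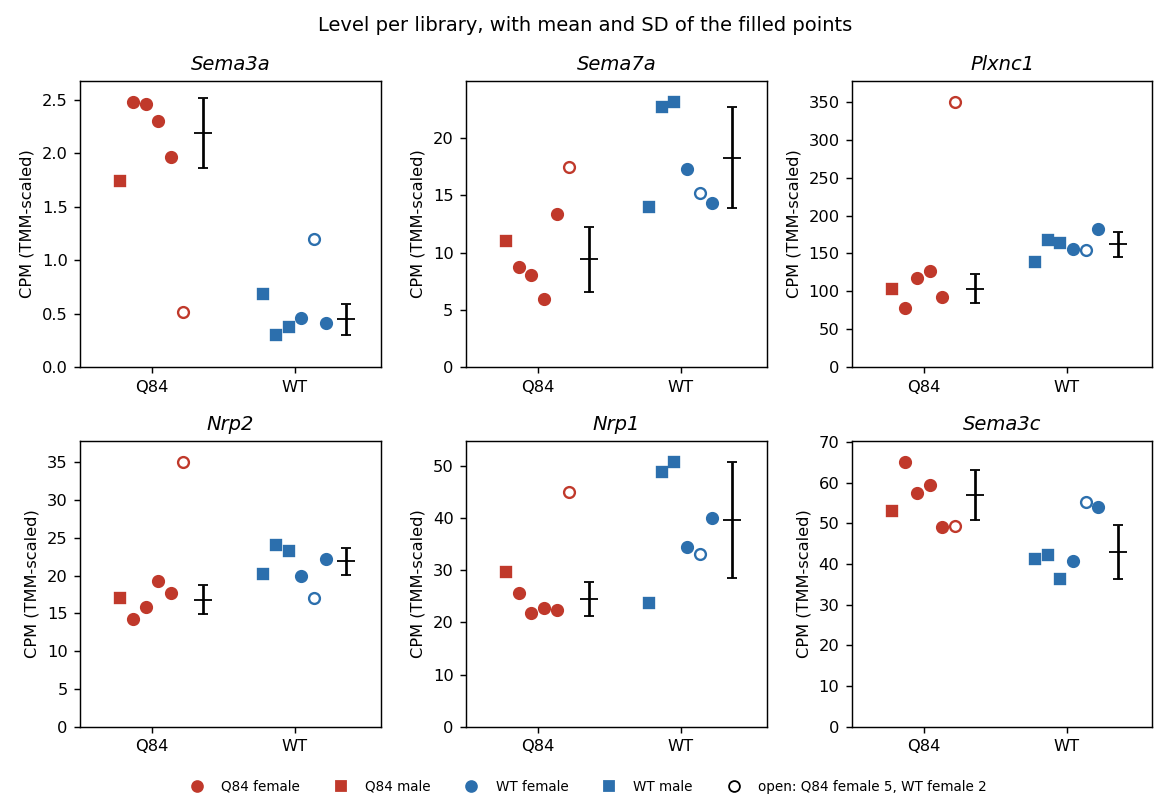
CPM of 6 members in every library, Q84 left of WT, with the mean and SD of the 5 filled points of each genotype in black. Sema3a is higher in the filled Q84 points than in the filled WT points, and Plxnc1 is lower, while Q84 female 5 (open) has 350 CPM of Plxnc1.

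Of the class A plexins, the signalling partners of neuropilins, none passed in the 10 libraries. Plxna2 had 18.1 ± 4.51 CPM in Q84 and 27.4 ± 6.60 CPM in WT (SD, n = 5 each), and Plxna4, through which Sema3a acts on sensory axons, had 9.91 ± 2.72 CPM in Q84 and 14.3 ± 3.15 CPM in WT. Their log2 fold changes were -0.53 and -0.48 (edgeR, adjusted p = 0.223 and 0.302). Plxna1 and Plxna3 had log2 fold changes of 0.11 and 0.17. All 3 class B plexins, receptors mainly of class 4 semaphorins, had values from 0.26 to 0.37 in the 10 libraries, with edgeR adjusted p of 0.179 to 0.484. Plxnb3 was the only one of these without overlap, at 3.95 to 5.21 CPM in the 5 Q84 libraries and 2.58 to 3.59 CPM in the 5 WT libraries, while Q84 female 5 had 6.08 CPM and WT female 2 had 4.46 CPM. Counted over protein-coding transcripts alone, Plxnb3 had a log2 fold change of 0.13 (edgeR, adjusted p = 0.922) in the 10 libraries and of -0.19 (adjusted p = 0.898) in the 12. Over all transcripts these values were 0.37 and 0.35 (edgeR, adjusted p = 0.179 and 0.321). The size thus depended on the transcripts counted, and the sign differed in the 12 libraries alone, where neither value passed. Without Q84 male 1 the 10-library values of Plxnb1 and Plxnb2 were 0.02 and 0.11, and without WT female 1 they were 0.47 and 0.58. Plxnd1, the Sema3e receptor of blood vessels and neurons, had a log2 fold change of -0.19 (adjusted p = 0.565).

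Counted over all classes, 6 of 31 members did not overlap between the 5 Q84 and the 5 WT libraries, against 8.67% of all genes tested. Sema3a and Plxnb3 were the 2 higher ones (2.71% of all genes), and Plxnc1, Sema7a, Nrp2 and Sema5b the 4 lower ones (5.96% of all genes). In the 12 libraries as labelled no member was without overlap, against 1.56% of all genes tested. In CPM, Q84 female 5 had the highest value of all 12 libraries for 7 of the 11 receptors, all but Nrp1, Plxna3, Plxnb1 and Plxnb2. In TPM it was the highest for Plxnb2 too (9.25 TPM). Among the ligands it was the highest in CPM for Sema3f, Sema3g, Sema4d, Sema5a, Sema5b and Sema6a. How many of all genes tested were highest in this library was not counted, so these values are not read as particular to the family.

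Summed markers of nociceptors were lower in the 5 Q84 libraries than in the 5 WT libraries. The summed TPM of 6 non-peptidergic nociceptor markers, of which 4 fell in the 10 libraries, was 191 to 292 in the 5 Q84 libraries and 325 to 653 in the 5 WT libraries. It was 442 in Q84 female 5 and 496 in WT female 2, both within the WT range. The sum of 5 peptidergic nociceptor markers, of which 3 fell, was 2287 to 3033 TPM in the 5 Q84 libraries and 4306 to 5164 TPM in the 5 WT libraries, with 3721 TPM in Q84 female 5 and 3660 TPM in WT female 2. All markers on both lists were above 1 TPM. The sum of 5 markers of neurons in general overlapped, at 4735 to 6005 TPM in the 5 Q84 libraries and 5080 to 7359 TPM in the 5 WT libraries. In bulk tissue, fewer cells of a type and less RNA per cell cannot be told apart, and the part of the nociceptor markers in the values of Plxnc1, Sema7a, Nrp1 and Nrp2 was not tested.

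Other marker lists held members that moved in the 10 libraries. Of 6 large myelinated neuron markers 2 fell (edgeR), Calb1 with a log2 fold change of -0.82 (adjusted p = 0.000166) and Ntrk2 with -0.37 (adjusted p = 0.00790), while their sum overlapped, at 549 to 970 TPM in the 5 Q84 libraries and 573 to 1090 TPM in the 5 WT libraries. Of 4 mural markers Rgs5 fell (-1.38, adjusted p = 7.99e-05), and Pdgfrb (0.60), Acta2 (0.54) and Cspg4 (0.17) had positive values that did not pass, so the median was 0.35. Rgs5 was at 45.5 to 56.3 TPM in the 5 Q84 libraries and 104 to 177 TPM in the 5 WT libraries, with 147 TPM in Q84 female 5 and 94.9 TPM in WT female 2. All 6 fibroblast markers had positive values, with a median of 0.52, and Pdgfra rose (0.61, adjusted p = 0.00303). Their sum was 810 to 1059 TPM in the 5 Q84 libraries and 697 to 942 TPM in the 5 WT libraries, and these ranges overlapped through WT male 1 alone.

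Aqp4, on the spinal cord list and also made by glia, fell (-0.72, edgeR, adjusted p = 0.00762), as did the T cell gene Cd3e (-1.11, adjusted p = 0.0260), which was below 1 TPM in every library. The 5 red blood cell genes had positive values from 1.21 to 1.40, all at an unadjusted p below 0.05 and none passing, and their sum was 1593 to 6780 TPM in the 5 Q84 libraries and 596 to 3438 TPM in the 5 WT libraries. Of the endothelial, macrophage, satellite glia, Schwann cell, adipocyte and skeletal muscle markers none passed with edgeR. At an unadjusted p below 0.05 there were 3 of 6 endothelial, 2 of 6 macrophage, 1 of 4 satellite glia, 0 of 5 Schwann cell, 2 of 4 adipocyte and 0 of 4 skeletal muscle markers. Over all genes tested this share was 20.2%. DESeq2 called 1 endothelial, 1 adipocyte and 1 red blood cell gene, and limma-voom 1 adipocyte gene, of these lists. Markers of surface epithelium came to 153.8 TPM in WT female 1 and to less than 1 TPM in every other library. Of these 4 markers 3 fell in the 10 libraries with edgeR, while DESeq2 called 4 and limma-voom 0. The part of the markers of all these lists in the results was not tested.

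Partners and effectors of the family were read from lists chosen by role. Over the 6 lists, 103 genes that are no members were tested. In the 10 libraries 5 of 103 passed with edgeR, against 6.45% of all genes tested, 9 with DESeq2 and 4 with limma-voom. At an unadjusted p below 0.05 (edgeR) there were 16 of 103, against 20.2% of all genes tested. In the 12 libraries 0 passed with edgeR, against 0.0053% of all genes tested, 1 with DESeq2 and 0 with limma-voom. At an unadjusted p below 0.05 there were 13 of 103, against 14.3% of all genes tested. Of 35 intracellular effectors 1 fell and 34 did not pass, with a median log2 fold change of 0.02. This was Mical1, an oxidoreductase that plexin A signals use to take actin filaments apart. It was at 6.67 ± 1.23 CPM in Q84 and 11.9 ± 2.03 CPM in WT (SD, n = 5 each), with a log2 fold change of -0.77 (SE 0.16, edgeR, adjusted p = 0.0144). Q84 female 5 held 16.2 CPM, above every other library. The call was lost without WT female 1 (adjusted p = 0.0640) or WT female 3 (0.0512). Of 17 co-receptors 0 passed (edgeR, 5 at an unadjusted p below 0.05, 1 with DESeq2 and 0 with limma-voom). Kdr, a VEGF receptor, and Robo1, a slit receptor, came nearest with 0.40 and 0.48 (adjusted p = 0.106 and 0.146). Of 8 VEGF ligands and receptors, which share the neuropilins, 0 passed (edgeR, 1 at an unadjusted p below 0.05, 1 with DESeq2 and 0 with limma-voom), with Kdr and Vegfb (0.19, adjusted p = 0.359) nearest.

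Other guidance families were read for comparison. In the 10 libraries 1.52% of all genes tested were called higher and 4.93% lower (edgeR). Of 22 ephrins and Eph receptors 3 rose, 0 fell and 19 did not pass there, with a median of 0.05. Epha3, a receptor of A-type ephrins, was at 6.37 ± 0.258 CPM in Q84 and 3.05 ± 0.365 CPM in WT (SD, n = 5 each). Its log2 fold change was 1.03 (SE 0.12, edgeR, adjusted p = 0.000451), and the call was kept with each library left out. As with Sema3a, Q84 female 5 was low, at 2.35 CPM, and WT female 2 lay in between, at 5.40 CPM. Epha7 (0.65, adjusted p = 0.00761) and Epha5 (0.49, adjusted p = 0.0283) also rose; the call of Epha7 was lost without WT female 3 (adjusted p = 0.0527), and that of Epha5 in 6 of 10 fits with a library left out. Of 14 netrins and their receptors 1 fell, Ntng1 (-0.48, adjusted p = 0.0420), a call lost in 9 of 10 such fits. Of 9 tested slits and ROBO receptors 0 passed (edgeR, 1 at an unadjusted p below 0.05, 0 with DESeq2 or limma-voom), with Robo1 and Slit2 (0.22, adjusted p = 0.399) nearest.

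Between the sexes no member passed (edgeR, 12 libraries, 4 males and 8 females, genotype as a term). The count was 0 of 31, against 0.0636% of all genes tested (0.0477% higher and 0.0159% lower in males), and 0 with DESeq2 and limma-voom. It was also 0 at an unadjusted p below 0.05, against 3.82% of all genes (2.08% higher and 1.74% lower). Log2 fold changes of male over female ran from -0.44 (Sema3a) to 0.36 (Plxna3). The smallest unadjusted p were those of Sema3c, with a log2 fold change of -0.23 (SE 0.11, edgeR, adjusted p = 1.0), and of Plxna3, an X-linked class A plexin (0.36, SE 0.18, adjusted p = 1.0). Since a single Q84 library came from a male, the effect of genotype was not compared between the sexes.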

How the data were processed

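Polyadenylated RNA of the ganglia was sequenced in 12 libraries, per the labels' protocols. The submitters' processing notes list STAR 2.7.10b, kallisto 0.46.2 and build GRCm39 but give no roles. The deposited tables hold estimated counts, lengths and TPM per transcript, per the file headers: the estimated counts are unscaled, and the authors' TPM values are scaled to effective length and a fixed total. Reads shared by similar transcripts are divided by likelihood in such counts.

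Of 116313 transcripts, 98.3% matched a gene in GENCODE M21 (GRCm38), used for names only, while transcripts with no match took 0.751 to 0.804% of counts. Gene sums of estimated counts were rounded, kept where filterByExpr passed them for the 4 sex and genotype groups, TMM-scaled and fitted in edgeR 4.0.16 (quasi-likelihood, robust; sex and genotype as terms; threshold 0.05 after Benjamini-Hochberg adjustment over all genes tested). SE is the log2 fold change divided by the square root of F. CPM values are scaled over the 12 libraries. All 31 members passed the filter in each fit. The test was checked on simulated counts. No 2 libraries of a group agreed within sampling noise (chi-square per degree of freedom 30.9 or more).

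The members, the lists, the 10-library comparison and the rule for named genes were chosen with earlier results of these data known. The rule gives library values for members that pass, filled up to 4 by p in the 10 libraries, names list genes that pass (at most 6, otherwise the 2 of smallest p), and the extremes of level. Nrp1, Sema3c, Sema5b and other members were described beyond it. Alternatives were DESeq2 1.42.0, limma-voom (limma 3.58.1), other scaling and filters, length-scaled TPM, coding transcripts alone, a replicate block, no sex term, females alone and each library left out.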

Additional observations from a re-analysis of the deposited data

Results flagged for a closer look

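Within the 6 libraries of each genotype as labelled, the highest or lowest value was set against its neighbour with Dixon's gap ratio, for 31 members and the Atxn3 transcript. Of 64 groups, 11 were picked out, 10 of them for the library labelled Q84 female 5. The flags in the Atxn3 transcript were known beforehand, since that transcript had singled out Q84 female 5 and WT female 2. For normally spread values the rule picks out about 1 in 20 groups. Values of several genes in 1 library are not independent, so the count of flags cannot be set against that rate. The values of Q84 female 5 were far above the other 5 Q84 libraries for Plxnc1 (350 CPM), Plxna2 (52.4 CPM), Plxna4 (31.5 CPM), Plxnd1 (13.7 CPM), Nrp1 (45.1 CPM), Nrp2 (35.1 CPM), Sema5a (75.4 CPM), Sema5b (1.02 CPM) and Sema4b (10.4 CPM). For Plxna2, Plxna4, Plxnc1, Plxnd1, Nrp2, Sema5a and Sema5b they were also above all 6 libraries labelled WT. The same library was far below the others in the Atxn3 transcript of 1000 bases (0.0612 TPM). The library labelled WT female 2 was far above the other WT libraries in that transcript (34.0 TPM).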

How the results depend on the processing

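In the 12 libraries as labelled 0 members were called, 1 with DESeq2, 3 with the replicate block and 0 to 3 with a library left out. The 3 came without Q84 female 5, where 244 genes were higher and 838 lower over all genes. In the 10 libraries 2 were called, 5 with DESeq2, 6 without the sex term, 1 under the strict filter and 1 to 6 with a library left out, the 6 without WT male 1 and the 1 without WT female 3 or Q84 male 1. Calls over all genes moved as well, from 285 higher and 923 lower as reported. They were 396 and 1116 without the sex term, 591 and 1387 without WT male 1 and 192 and 520 under the strict filter. Without WT female 3 they were 122 and 617, and without Q84 male 1 they were 117 and 564. Sema3a and Plxnc1 were both among the calls with DESeq2, limma-voom, RLE and upper-quartile scaling, no filter, length-scaled TPM, coding transcripts alone and the block. For male over female the count was 0 under every alternative run. No log2 fold change of a member that was called, as reported or in the alternative, changed sign. Same-numbered libraries deviated together in 2 of 9 pairs above 0.1 (-0.13 to 0.24), and 5 of 9 libraries correlated best with their own number, so the numbers were not taken as pairs. With the replicate block 3 members were called in the 10 libraries, Sema7a (adjusted p = 0.0303) beside Sema3a and Plxnc1, among 133 genes higher and 568 lower over all genes, against 285 higher and 923 lower without it. DESeq2 called 578 genes higher and 1355 lower in the 10 libraries and 166 higher and 454 lower in the 12, where edgeR called 1 and the block 102 higher and 537 lower. The cause of these differences was not tested. Counts of 25 to 189 reads limit Sema3a, and 3 to 76 reads limit Sema5b.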
